A study of Rattus norvegicus with 17 samples.

Results

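Circadian clock genes were examined in the meibomian gland (MG), the oil-secreting gland of the eyelid, in 10 members of the clock network: Arntl, Npas2, Per2, Per3, Cry1, Ciart, Nr1d1, Nr1d2, Dbp and Tef. The members were chosen by name, with earlier results of these data known. All 10 were found among the 17251 genes of the deposited table. RNA-seq had been performed on MGs from 17 female Sprague-Dawley rats aged 10 to 12 weeks in 4 groups: 4 wild-type (WT) rats without UVB (Control WT), 5 P1.hMR rats without UVB (Control P1.hMR), 3 WT rats after 5 days of UVB on the eyelids (UVB WT) and 5 P1.hMR rats after the same UVB course (UVB P1.hMR). P1.hMR rats carry the human mineralocorticoid receptor (MR) gene, NR3C2, driven by its own proximal P1 promoter in every tissue that expresses MR, so the transgene is not restricted to the MG. The upper eyelids were shaved for UVB, and the study's methods do not mention shaving of the control rats. The study asked how UVB and excess MR act on the gland.

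The mammalian clock is a feedback loop of transcription that runs in most cells with a period of about a day. The activator pair formed by Arntl (also called Bmal1) with Clock or its relative Npas2 binds E-boxes and switches on the Per and Cry genes, whose proteins then inhibit the activators. In a further loop, the nuclear receptors encoded by Nr1d1 and Nr1d2 (REV-ERB alpha and beta) repress Arntl and Npas2 through ROR elements, and Dbp and Tef are PAR bZIP output factors that act on D-boxes. In rodent tissues the mRNAs of Arntl and Npas2 therefore peak at about the opposite time of day to those of Dbp and Nr1d1. Skin and its glands have such clocks.

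Levels are given in TPM, a unit already scaled to gene length and to the library, and differences on the log2(TPM + 1) scale. NR3C2 was listed at 0 TPM in all 7 WT rats and lay between 5.31 and 9.31 TPM in the 10 P1.hMR rats. No 2 rats had identical values, and the Pearson r between rats across genes lay between 0.969 and 0.993. TPM values keep no read depth, and the study's methods give only a range of mapped reads over its libraries. The counting error behind each value is therefore unknown. The 9 meibocyte markers were all listed, with a summed level of 15227 to 19629 TPM in control and 13045 to 15694 TPM in UVB rats. All 10 members passed the filter of at least 1 TPM in at least 3 rats, which 13105 genes passed. A gene was called when its Benjamini-Hochberg adjusted p, from limma over all 13105 genes, was under 0.05 and its absolute log2 fold change was at least 0.5. In whole glands, fewer cells that express a gene and less of its RNA per cell cannot be told apart. The time of day of dissection was not given in the sources used here, and its part in the values below was not tested.

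After UVB, Npas2, an activator, and Nr1d1, a repressor, fell in both genotypes, and their levels in the 8 UVB rats did not overlap those in the 9 control rats, as was the case for 10.8% of all genes tested. Dbp fell and Cry1 rose in P1.hMR rats. Thus 2 of 10 members (20%) were called in WT rats, where 7.91% of all genes tested were called, and 4 of 10 (40%) in P1.hMR rats, where 10.8% were called. Averaged over the genotypes, Npas2, Nr1d1, Dbp and Cry1 were called, against 9.48% of all genes. Arntl, Per2, Per3, Ciart, Tef and Nr1d2 were not called in any comparison. The plot of each rat's levels shows these patterns side by side.

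**Figure D1:**
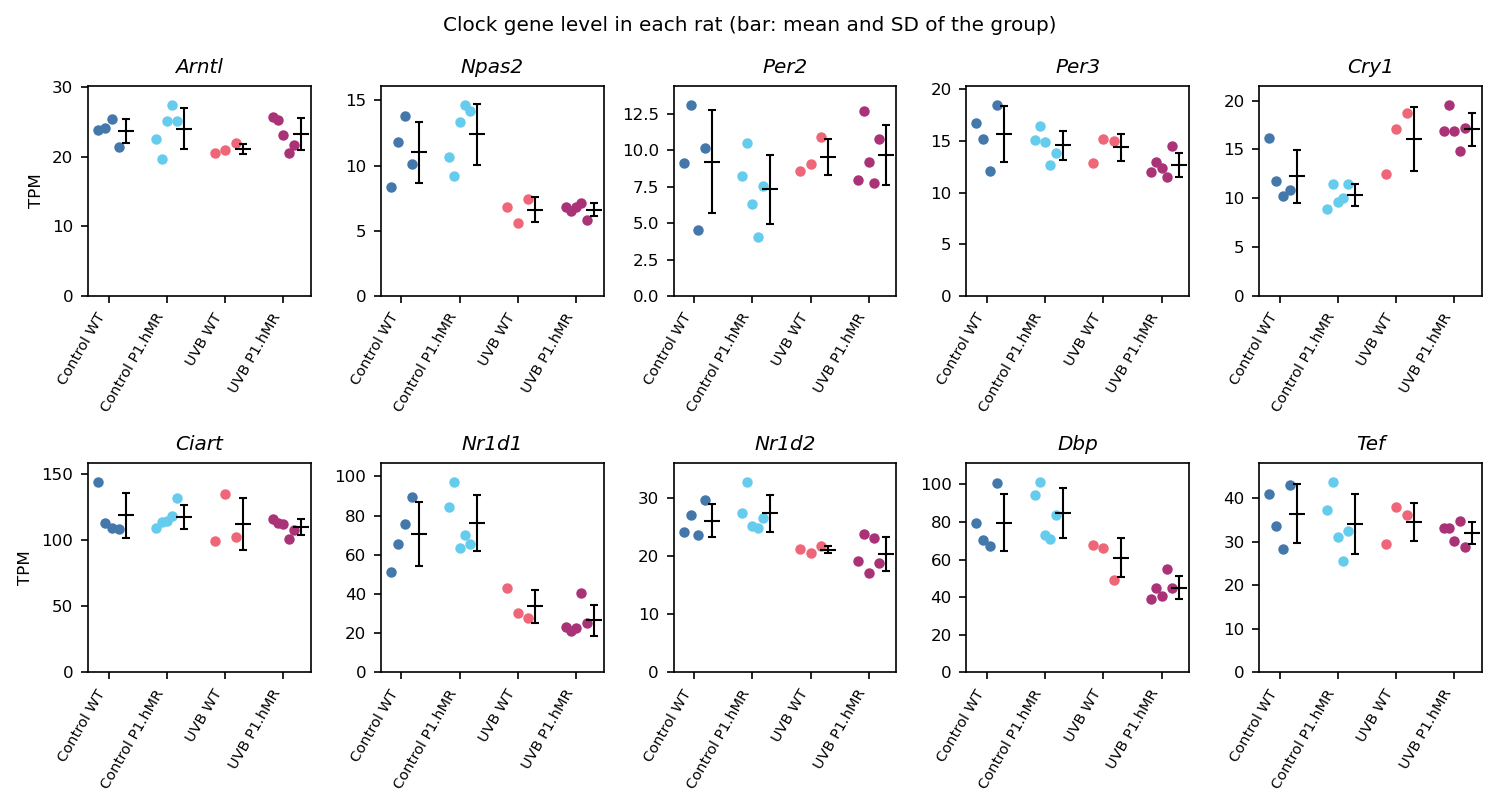
TPM (y axis, from 0) of each clock gene in the 17 rats, by group (x axis), with points for rats and a black bar for the mean and SD of each group. All 8 UVB rats sit below all 9 control rats for Npas2 (at most 7.42 against at least 8.34 TPM) and for Nr1d1 (at most 43.24 against at least 51.13 TPM), whereas the groups overlap for Arntl, Per2, Per3, Ciart and Tef.

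Of the activators, Npas2 fell and Arntl was not called. Npas2 stood at 8.34, 11.81, 13.79 and 10.08 TPM without UVB in the WT group of 4 and at 6.85, 5.61 and 7.42 TPM in the 3 UVB WT rats. In P1.hMR rats Npas2 stood at 10.69, 9.22, 13.32, 14.63 and 14.17 TPM without UVB and at 6.84, 6.50, 6.81, 7.12 and 5.86 TPM with it. Every UVB rat was therefore below every control rat. Npas2 fell by 0.64 (SE 0.16) in WT rats (limma adjusted p = 0.00841) and by 0.80 (SE 0.13) in P1.hMR rats (limma adjusted p = 0.000172). Averaged over the genotypes Npas2 fell by 0.72, with 95% limits of -0.93 and -0.51 (two-sided exact permutation p = 0.000227 over 8820 arrangements of the UVB label within genotype). Arntl, its partner, stood at 21.34 to 25.36 TPM in Control WT, 20.54 to 21.92 TPM in UVB WT, 19.71 to 27.43 TPM in Control P1.hMR and 20.50 to 25.75 TPM in UVB P1.hMR rats, so its groups overlapped. The averaged UVB difference of Arntl was -0.10, with limits of -0.23 and 0.04 (exact permutation p = 0.128).

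For reference, the stretch just before the annotated start of Arntl (RefSeq, rat build GRCr8, chr1:176766266-176766324, plus strand) is shown because it carries a pair of ROR elements, the sites at which REV-ERB proteins act. The capitals mark AAAGTAGGTTA, which begins 56 bases before the start, and AAAGTAGGTCA, which begins 20 bases before it.
Arntl: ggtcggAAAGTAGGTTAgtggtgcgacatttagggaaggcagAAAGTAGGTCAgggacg
These spellings were chosen with the Arntl sequence in view, and they were found on either strand in 5 of 33469 RefSeq windows of 250 bases before a start (0.0149%). Arntl's was the only window with more than 1 of them, and the window of Npas2 held neither.

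Of the repressors of the further loop, Nr1d1 had the largest UVB difference of the 10 members in both genotypes, and Nr1d2 was not called. Nr1d1 stood at 51.13, 65.52, 75.92 and 89.78 TPM in Control WT rats, as against 43.24, 30.27 and 27.74 TPM in UVB WT rats. In P1.hMR rats it stood at 84.40, 97.40, 63.42, 70.14 and 65.62 TPM without UVB and at 23.37, 21.16, 22.93, 40.67 and 25.25 TPM with UVB. The 8 UVB rats again all lay below the 9 control rats, with UVB P1.hMR rat 4 and UVB WT rat 1 closest to them. Nr1d1 fell by 1.04 (SE 0.22) in WT rats (limma adjusted p = 0.00409). In P1.hMR rats it fell by 1.50 (SE 0.18; limma adjusted p = 1.66e-05). By the size of the difference it ranked 226 in WT rats and 111 in P1.hMR rats among the 13105 genes. The averaged fall of 1.27 gave an exact permutation p of 0.000113, the smallest that this averaged test allows. Nr1d2, its relative, stood at 23.59 to 29.66 TPM in Control WT and 20.49 to 21.69 TPM in UVB WT rats, and at 24.78 to 32.83 TPM in Control P1.hMR and 17.03 to 23.84 TPM in UVB P1.hMR rats. The groups did not overlap within either genotype, yet the differences of -0.29 (limma adjusted p = 0.0811) and -0.41 (limma adjusted p = 0.00259) were under the fold threshold, so Nr1d2 was not called. In the first of these the adjusted p missed the threshold as well.

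By whole gene span, Nr1d1 overlaps the thyroid hormone receptor gene Thra in the RefSeq annotation. Whether their exons overlap was not examined, and whether reads were counted by strand is not given in the sources used here. Reads from any shared exon stretch may therefore not be told apart. The same limit holds for Cry1, which overlaps the protein-coding gene LOC120093541. It also holds for Npas2, which overlaps 2 long noncoding RNA genes, and for Per2, which overlaps 1. Thra stood at 35.87 to 39.85 TPM in Control WT, 26.12 to 35.25 TPM in UVB WT, 35.18 to 45.16 TPM in Control P1.hMR and 25.12 to 29.75 TPM in UVB P1.hMR rats. Its UVB difference was -0.31 in WT rats and -0.52 in P1.hMR rats, the latter called lower (limma adjusted p = 0.000137), so both differences were smaller than those of Nr1d1. Nr1d1 has a pair of annotated starts, and the window before the downstream start (chr10:84229634-84229651, minus strand, GRCr8) is shown because it holds an E-box, CACGTG, in capitals, 191 bases before the start.
Nr1d1: ctcccaCACGTGtctggg

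Of the output factors, Dbp fell in P1.hMR rats. Dbp stood at 94.08, 101.42, 73.15, 71.03 and 83.88 TPM in this genotype without UVB and at 39.23, 45.12, 40.79, 55.14 and 44.94 TPM after it. In WT rats it stood at 79.64, 70.17, 67.28 and 100.83 TPM without UVB and at 67.51, 66.21 and 49.05 TPM with UVB. The P1.hMR groups were apart, whereas UVB WT rat 1 reached above Control WT rat 3. Dbp fell by 0.89 (SE 0.13) in P1.hMR rats (limma adjusted p = 7.24e-05). In WT rats the difference was -0.37 (SE 0.16), which was not called (limma adjusted p = 0.0989). The averaged fall was 0.63 (exact permutation p = 0.000454). Tef, which encodes a relative of Dbp, was not called: it stood at 25.56 to 43.84 TPM in the 9 control rats and at 28.85 to 37.92 TPM in the 8 UVB rats, and the averaged difference was -0.07, with limits of -0.28 and 0.15. The Tef window held an E-box 198 bases before the start (chr7:115206623-115206640, plus strand, GRCr8), and the window of Dbp held none of the motifs searched.
Tef: gcccagCACGTGtctaca

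Among the inhibitors, Cry1 was the member that rose. Cry1, which encodes a cryptochrome, stood at 8.91, 11.46, 9.65, 10.02 and 11.49 TPM in P1.hMR rats without UVB and at 16.85, 19.54, 16.93, 14.82 and 17.21 TPM after it, without overlap. In WT rats it stood at 16.17, 11.73, 10.22 and 10.83 TPM without UVB and at 12.46, 17.07 and 18.72 TPM with UVB, where Control WT rat 1 and UVB WT rat 1 made the groups overlap. Cry1 rose by 0.68 (SE 0.12) in P1.hMR rats (limma adjusted p = 0.000385). The WT difference of 0.37 (SE 0.15) was not called (limma adjusted p = 0.0803), but it was called without Control WT rat 1 (0.50, limma adjusted p = 0.0121) or without UVB WT rat 1 (0.53, limma adjusted p = 0.0210). The averaged rise of 0.52 (exact permutation p = 0.00102) lay just past the fold threshold, and it dropped under it without Control WT rat 3 (0.487), UVB WT rat 2 (0.499), UVB WT rat 3 (0.467) or UVB P1.hMR rat 2 (0.4999). The period genes were not called. Per2 stood at 4.02 to 13.10 TPM in control and 7.78 to 12.69 TPM in UVB rats, and Per3 at 12.12 to 18.46 TPM in control and 11.53 to 15.17 TPM in UVB rats. Their averaged differences were 0.25 (limits -0.13 and 0.64) for Per2 and -0.14 (limits -0.30 and 0.01) for Per3, and neither was called.

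The Per2 window (chr9:99497044-99497191, minus strand, GRCr8) is shown because it holds both a D-box, TTATGTAA, 192 bases before the start and the E-box variant CACGTT, 62 bases before it. The capitals mark them in that order.
Per2: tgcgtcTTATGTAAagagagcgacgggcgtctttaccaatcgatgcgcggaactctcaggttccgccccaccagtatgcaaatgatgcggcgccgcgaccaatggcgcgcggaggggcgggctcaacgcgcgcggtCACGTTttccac
Ciart, which encodes a repressor that binds the Arntl complex, had the highest level of the 10 members in each group. It stood at 108.70 to 144.61 TPM in the 9 control rats and at 99.72 to 135.20 TPM in the 8 UVB rats, and its averaged UVB difference was -0.09, with limits of -0.23 and 0.06 (exact permutation p = 0.310). Its window (chr2:186112256-186112345, minus strand, GRCr8) is shown because it carries 3 E-boxes, CACGTG in capitals, which begin 93, 35 and 21 bases before the start.
Ciart: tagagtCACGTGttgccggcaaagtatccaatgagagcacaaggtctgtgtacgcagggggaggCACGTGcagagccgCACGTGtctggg
On either strand, CACGTG was found in 5.59% of the 33469 windows, CACGTT in 4.07%, and the D-box as TTATGTAA or TTACGTAA in 0.932%. Only 17 windows (0.0508%) held at least 3 CACGTG. Windows were matched for 9 of the 10 members, not for Cry1, and those of Per3 and Nr1d2 held none of the motifs searched. A match is a description of letters and not evidence of binding.

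**Figure D2:**
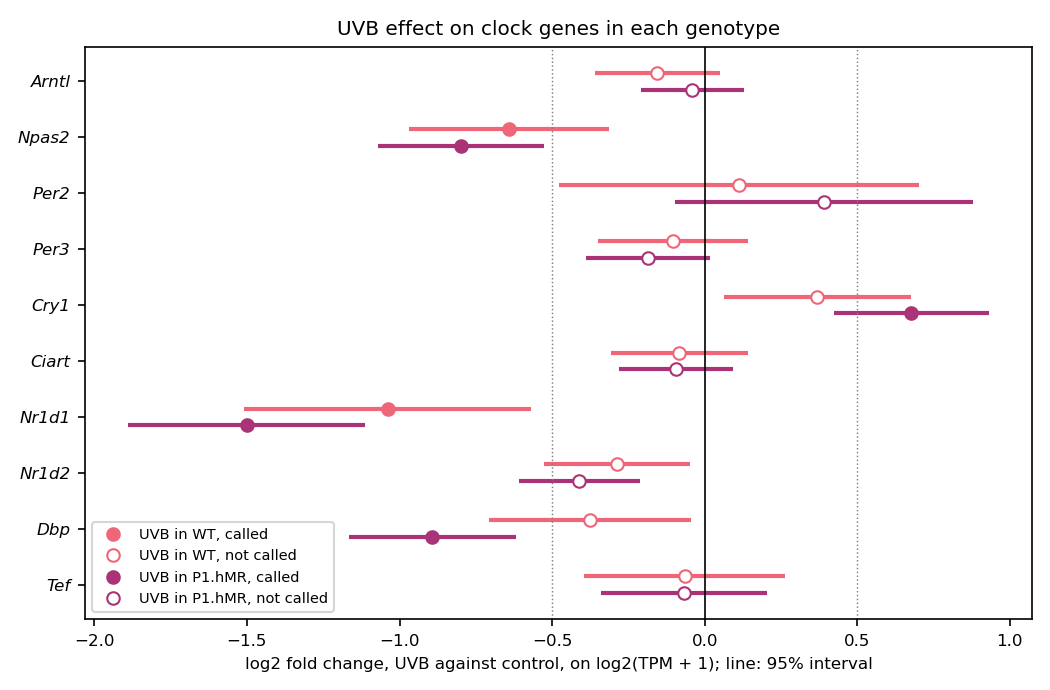
Log2 fold change of UVB against control on log2(TPM + 1) (x axis) for each clock gene (y axis), in WT and P1.hMR rats, with 95% limits as lines, filled points for called genes and dotted lines at the fold threshold of 0.5. Nr1d1 (-1.04 and -1.50) and Npas2 (-0.64 and -0.80) are filled in both genotypes, while Dbp (-0.89) and Cry1 (0.68) are filled in P1.hMR rats.

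The groups did not overlap for 3 members in WT rats (Npas2, Nr1d1 and Nr1d2), against 26.6% of all genes, and for 5 members in P1.hMR rats (those 3, Dbp and Cry1), against 27.2%. The median absolute UVB difference of the members was 0.22 in WT rats and 0.40 in P1.hMR rats, and that of all genes was 0.14 and 0.16. With 3 against 4 rats, the exact permutation p of a single gene cannot go below 0.0571, which Npas2, Nr1d1 and Nr1d2 reached in WT rats. With 5 against 5 it cannot go below 0.00794, which Npas2, Nr1d1, Nr1d2, Dbp and Cry1 reached in P1.hMR rats.

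Other features of the tissue differed between UVB and control rats too. The part of shaving in these differences was not tested. The 7 hair keratin markers tested had a summed level of 297 to 797 TPM in control and 175 to 456 TPM in UVB rats, and all 7 were called lower in the averaged comparison. With the mean of these markers as a covariate, Npas2 (-0.66, limma adjusted p = 0.0555) and Nr1d1 (-0.84, limma adjusted p = 0.0725) were no longer called in WT rats. Without the covariate the WT differences of Npas2 and Nr1d1 were -0.64 and -1.04. In P1.hMR rats no member call changed with this covariate. The 8 skeletal muscle markers listed summed to 2119 to 3778 TPM in control and 1587 to 3280 TPM in UVB rats. With the mean of those as a covariate the averaged Cry1 difference was 0.41 (limma adjusted p = 0.0143), under the fold threshold. The 8 macrophage markers summed to 88.8 to 160 TPM in control and 135 to 256 TPM in UVB rats, and 5 of them were called higher in each genotype. Of the 9 meibocyte markers, UVB rats had 3 called higher and 1 called lower among WT animals, and 2 called higher and 1 called lower among P1.hMR animals. In both genotypes the lower marker was Awat2, a wax ester synthase, with a mean of 11610 TPM in Control WT against 7380 TPM in UVB WT and 10455 TPM in Control P1.hMR against 7280 TPM in UVB P1.hMR rats. Of 4 melanocyte markers tested, 3 were called lower in WT rats and in the averaged comparison and 0 in P1.hMR rats. The part of the macrophage, meibocyte and melanocyte markers in the clock gene differences was not tested.

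The order of the levels differed between control and UVB groups. In both control groups the order by mean was Ciart, Dbp, Nr1d1, Tef, Nr1d2, Arntl and Per3, followed by Cry1, Npas2 and Per2 at 7.32 to 12.4 TPM. Dbp and Nr1d1 did not differ beyond their ranges, nor did Tef from Nr1d2, Nr1d2 from Arntl, or any neighbours from Per3 down. In both UVB groups Nr1d1, at a mean of 33.8 TPM in WT rats and 26.7 TPM in P1.hMR rats, came after Tef (34.6 and 32.0 TPM), with overlapping ranges. Npas2 was the lowest in both, at 6.63 TPM, and its range was apart from that of Per2. The log2 ratio of Cry1 to Nr1d1 spanned -3.05 to -1.66 in Control WT, -1.80 to -0.57 in UVB WT, -3.24 to -2.51 in Control P1.hMR and -1.46 to -0.11 in UVB P1.hMR rats. The control and UVB ranges thus met only in WT, where Control WT rat 1 lay above UVB WT rat 1.

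The transgene was compared with WT at rest and under UVB. No member was called in either comparison, where 0.00763% and 0.0229% of all genes were called, and no member had groups that did not overlap, against 1.03% and 5.87% of all genes. At an unadjusted limma p under 0.05 there were 0 members without UVB, against 4.03% of all genes, and 1 under UVB, against 10.3%. Without UVB the member differences, P1.hMR minus WT, ran from -0.27 (Per2) to 0.16 (Npas2). Under UVB the largest was Dbp, at 39.23 to 55.14 TPM in P1.hMR against 49.05 to 67.51 TPM in WT rats, a difference of -0.42 with limits of -0.74 and -0.11 that did not pass (limma adjusted p = 0.345, unadjusted 0.0119). The UVB effect on Dbp in P1.hMR rats minus that in WT rats was -0.52, with limits of -0.95 and -0.09 (limma adjusted p = 0.704, unadjusted 0.0210). For Cry1 the same term was 0.31 (limits -0.09 and 0.71) and for Nr1d1 -0.46 (limits -1.07 and 0.15). By limma the interaction was called for 0 of 13105 genes, although 907 (6.92%) had an unadjusted p under 0.05, Dbp alone among the members, and 8 were called without UVB WT rat 3, so Dbp and Cry1, called in P1.hMR rats alone, were not shown to respond differently in the genotypes.

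Clock genes also varied between rats of the same group. The residual SD within groups, on the log2(TPM + 1) scale, was 0.41 for Per2 (percentile 96.4 of all genes tested), 0.32 for Nr1d1 (percentile 93.3), 0.23 for Dbp (83.3), 0.22 for Tef (82.9), 0.22 for Npas2 (81.9) and 0.21 for Cry1 (79.2). Arntl, at 0.13 (53.1), was near the median of all genes, 0.13, and Per3, Nr1d2 and Ciart lay between the percentiles of 61.3 and 65.1. These are descriptions with no test.

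In several control rats, Arntl and Npas2 deviated in the opposite direction to the outputs. Among the P1.hMR control rats, rat 2 had the lowest Arntl (19.71 TPM) and Npas2 (9.22 TPM) of its group and the highest Per2 (10.48 TPM), Per3 (16.40 TPM), Nr1d1 (97.40 TPM), Nr1d2 (32.83 TPM), Dbp (101.42 TPM) and Tef (43.84 TPM). Rat 4 of that group had the highest Arntl (27.43 TPM) and Npas2 (14.63 TPM) and the lowest Per2 (4.02 TPM), Per3 (12.64 TPM), Nr1d2 (24.78 TPM), Dbp (71.03 TPM) and Tef (25.56 TPM), while its Nr1d1 (70.14 TPM) was the median of the group. In Control WT, rat 3 had the highest Arntl and Npas2 and the lowest Per2, Per3, Nr1d2, Dbp and Tef, although only rat 4 exceeded its Nr1d1 (75.92 TPM). Rat 4 had the lowest Arntl and the highest Per3, Nr1d1, Nr1d2, Dbp and Tef, but not the lowest Npas2 or the highest Per2. By contrast, Control WT rat 1 had the lowest Npas2 (8.34 TPM) together with the lowest Nr1d1 (51.13 TPM) of its group. In UVB P1.hMR, rat 4 combined the lowest Arntl (20.50 TPM) with the highest Nr1d1 (40.67 TPM), Dbp (55.14 TPM) and Tef (34.88 TPM), but it also had the highest Npas2 (7.12 TPM).

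Over all 17 rats, with each value centred on its group mean, Arntl and Dbp were inversely related (Pearson r = -0.81, permutation p = 7e-05, adjusted over 45 pairs p = 0.00315, and Spearman rho = -0.80, permutation p = 0.00024, adjusted p = 0.0108). Without the 2 rats farthest in Arntl r was -0.75, and leaving out each rat in turn gave r between -0.85 and -0.78. Without the centring the relation was not seen (r = -0.19, permutation p = 0.466). Of the 45 pairs of members, 10 had a Pearson r with an adjusted permutation p under 0.05, 5 positive and 5 negative, but of the rank correlations only that of Arntl and Dbp passed. The other negative pairs were Npas2 with Per3 (r = -0.77) and with Tef (r = -0.75), Arntl with Nr1d1 (r = -0.70) and Cry1 with Nr1d1 (r = -0.68). The positive pairs were Per2 with Per3 (r = 0.76), Per3 with Tef (r = 0.72), Nr1d1 with Dbp (r = 0.69), Nr1d2 with Dbp (r = 0.64) and Nr1d2 with Tef (r = 0.63). Each of these pairs came from the same libraries, so its values share each library's composition. Marker means varied with some members too, given here as centred r over the 17 rats with no test. The skeletal muscle mean had an r of 0.13 with Arntl and -0.11 with Dbp. The macrophage mean had an r of -0.48 with Arntl, 0.39 with Dbp, -0.67 with Ciart, 0.66 with Nr1d1 and 0.70 with Nr1d2. The meibocyte mean had an r of 0.65 with Cry1, 0.67 with Ciart and -0.60 with Nr1d1. The mean of the corticosteroid-responsive genes, which include the clock gene Per1, had an r of 0.76 with Per2, 0.58 with Nr1d2 and 0.57 with Tef. Arntl with Dbp was -0.81 after the muscle or the hair keratin mean was regressed out, -0.78 after the macrophage mean and -0.82 after the meibocyte mean, checks chosen after seeing the data. For the other pairs the part of these markers was not tested.

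**Figure D3:**
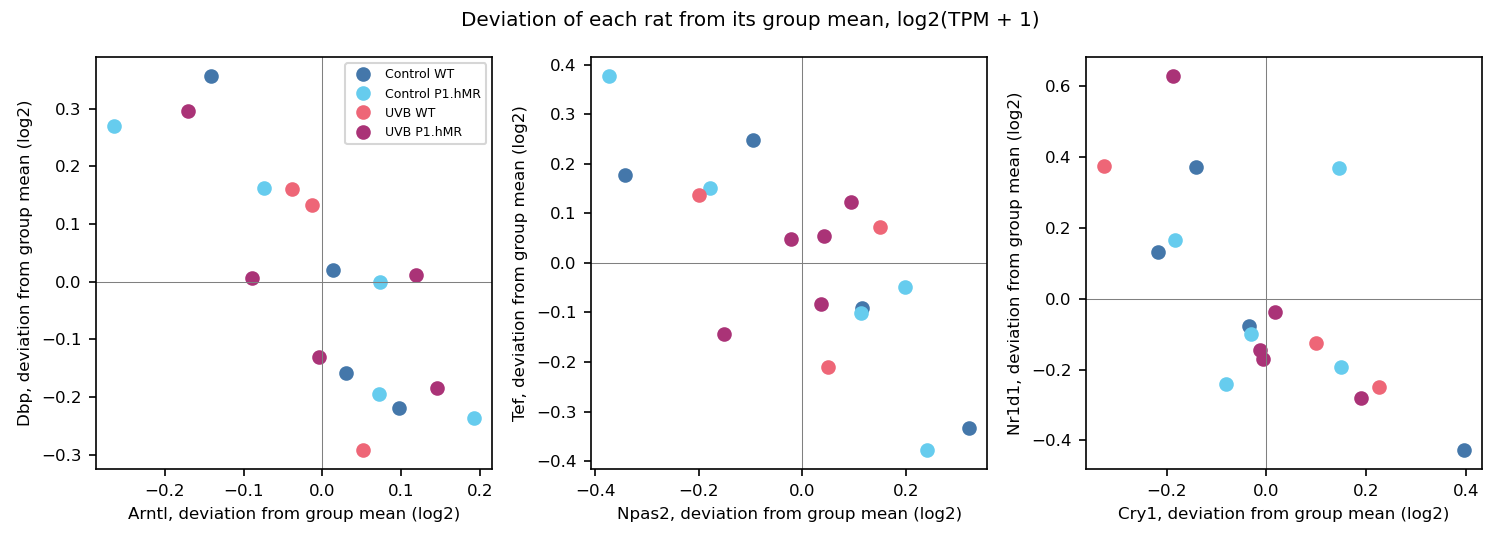
Deviation of each of the 17 rats from its group mean on log2(TPM + 1), for Dbp against Arntl, Tef against Npas2 and Nr1d1 against Cry1, with points coloured by group. Over all 17 rats the points run from upper left to lower right in each panel, with r = -0.81, -0.75 and -0.68. For Tef against Npas2, r was -0.91 in the control rats and 0.04 in the UVB rats.

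The relations were also examined in control and UVB rats apart. In the 9 control rats, 8 of 45 pairs passed by exact permutation of rats within groups after adjustment. Arntl was inversely related to Tef (r = -0.92), Nr1d2 (r = -0.91), Dbp (r = -0.89) and Per3 (r = -0.77), and Npas2 to Tef (r = -0.91), while Tef was positively related to Per3 (r = 0.91) and Dbp (r = 0.91), and Nr1d2 to Dbp (r = 0.82). The adjusted exact p was 0.0201 for each of these except Nr1d2 with Dbp, where it was 0.0410. The Spearman rho of these 8 pairs had the same signs, with adjusted exact permutation p between 0.0156 and 0.0368. Without the 2 rats farthest in the first gene of the pair, r fell in size most for Nr1d2 with Dbp (0.48) and for Arntl with Nr1d2 (-0.65). In the 8 UVB rats no pair passed by exact permutation, where the smallest possible p is 0.00139. There the r of Arntl with Dbp was -0.69 (exact p = 0.0250, adjusted p = 0.281), of Arntl with Nr1d1 -0.77 (exact p = 0.00556, adjusted p = 0.156) and of Cry1 with Nr1d1 -0.85 (exact p = 0.00694, adjusted p = 0.156). For Dbp with Tef it was 0.0027, for Arntl with Tef 0.17, for Npas2 with Tef 0.039 and for Per3 with Tef 0.035. Whether the relations differed between control and UVB rats was not tested.

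**Figure D4:**
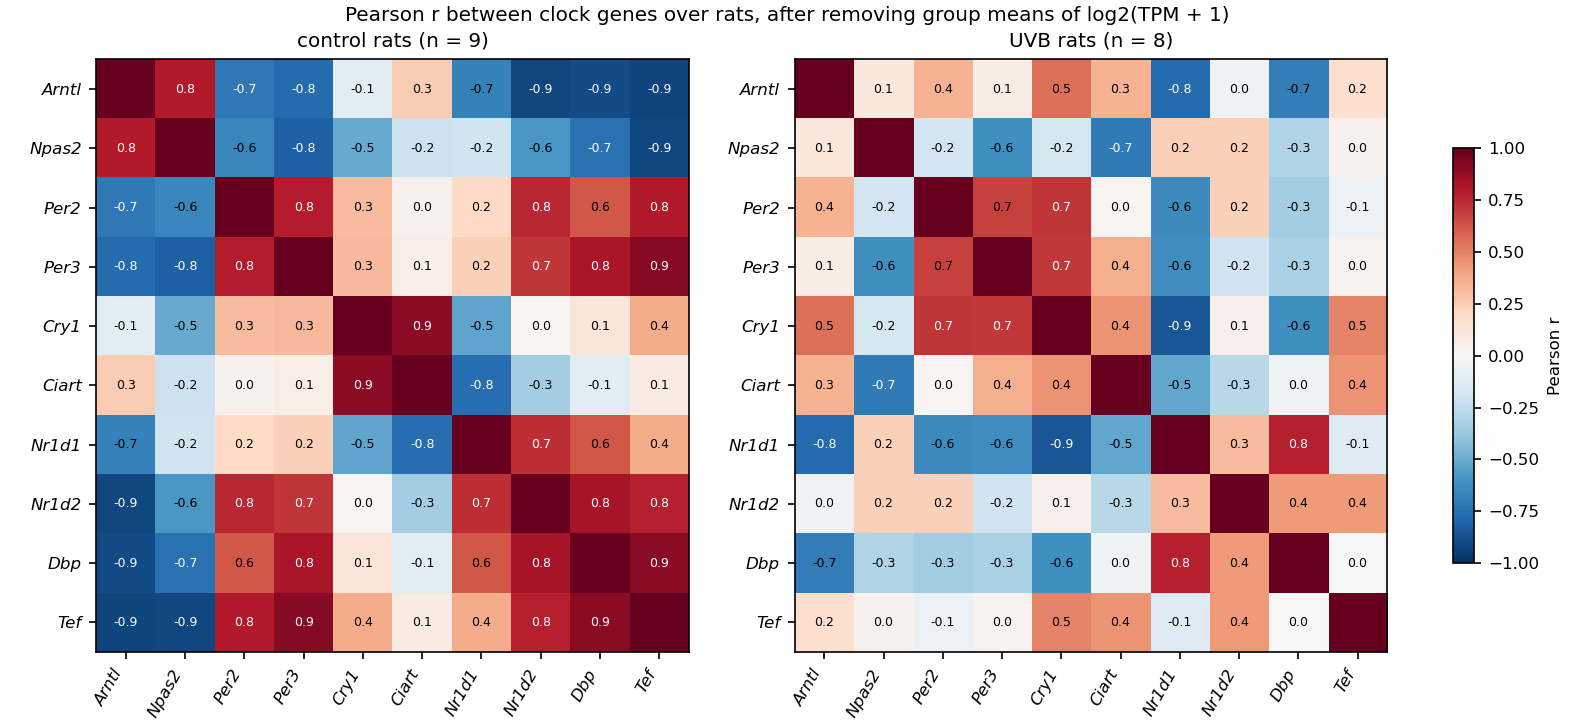
Pearson r between each pair of clock genes (both axes) over the 9 control rats and the 8 UVB rats, after removing group means of log2(TPM + 1), with colour and printed digits for r. In control rats Arntl and Npas2 are negative against Per2, Per3, Nr1d2, Dbp and Tef (Arntl with Tef -0.92), and in UVB rats fewer cells are deep in colour (6 pairs with an absolute r of at least 0.7, against 21).

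The genes most like Arntl and Dbp over the 17 rats were sought among 9935 genes with a mean of at least 5 TPM, by the same centred r and with no test. Outside the members, those nearest to Arntl were Pin4 (r = 0.89), Pcnp (0.80), Nxt1 (0.79), Rcor1 (0.78) and Lsm14b (0.78). Npas2 ranked 111 in likeness to Arntl, whereas Dbp ranked 9934, the lowest of all. Those nearest to Dbp were Idnk (r = 0.77), Wdr25 (0.76), Wdr60 (0.76), Ten1 (0.76) and Atp6ap1 (0.73). Nr1d1 ranked 9, Nr1d2 30 and Tef 32 in likeness to Dbp.

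The wider clock pathway was read from a list of 30 further genes, of which 28 were listed and 27 tested. In WT rats 2 of 27 were called, both lower (7.41% against 7.91% of all genes). In P1.hMR rats 2 were called higher and 2 lower (14.8% against 10.8%), and in the averaged comparison 2 were called lower (7.41% against 9.48%). Fbxl21, which encodes an F-box protein that acts on cryptochrome stability, fell from a mean of 77.4 to 36.3 TPM in WT rats and from 74.3 to 29.4 TPM in P1.hMR rats (by 1.08 and 1.32, limma adjusted p = 0.000537 and 5.07e-06). Bhlhe40, an E-box repressor, fell by 0.53 in P1.hMR rats (limma adjusted p = 9.45e-06), where Arntl2, a relative of Arntl (0.55, limma adjusted p = 0.00491), and Usp2, a deubiquitinase (0.60, limma adjusted p = 0.00718), rose. The WT differences had the same signs and were not called. They were -0.28 for Bhlhe40 (limma adjusted p = 0.0134), 0.35 for Arntl2 (limma adjusted p = 0.147) and 0.32 for Usp2 (limma adjusted p = 0.255). None of these was called between the genotypes.

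The other genes named by role were not called. Clock, the usual partner of Arntl, stood at means of 21.5 TPM in Control WT, 23.9 TPM in UVB WT, 20.8 TPM in Control P1.hMR and 26.2 TPM in UVB P1.hMR rats, a UVB difference of 0.15 in WT rats and 0.32 in P1.hMR rats, both under the fold threshold although the latter passed the adjusted p (limma, 6.74e-05). Per1 had wide ranges, 13.17 to 41.68 TPM over all rats, and UVB differences of -0.45 and -0.27 that did not pass. Cry2 (0.05 and 0.04), the D-box repressor Nfil3 (0.24 and 0.25) and the E-box repressor Bhlhe41 (0.22 and 0.01) were not called. Per1 is also a glucocorticoid-responsive gene. Of 7 corticosteroid-responsive genes tested, Sgk1 alone was called, lower by 0.55 in WT rats and by 0.59 in P1.hMR rats (limma adjusted p = 0.00251 and 0.000116), whereas Fkbp5 (-0.34 and 0.34) and Tsc22d3 (-0.20 and 0.17) were not.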

How the data were processed

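RNA-seq of MGs from 17 rats was quantified by the authors against the rat build rn7. The study's methods name STAR and RSEM, the submitters' processing notes name Trimmomatic, DRAGEN and Picard, and both name FastQC, so the quantifier behind the table is not settled. The deposited values are TPM per gene with 2 decimals and decimal commas; they sum to 804378 to 840817 per rat, and 12372 to 12737 genes reached 1 TPM. The study's methods give a range of mapped reads but not the depth of each rat, and the number of rats limits the precision. The methods count irradiated samples in eyes and controls in rats, whereas the labels give rats, and the study states that the eyes of an animal, where both were used, were pooled; each sample was taken as 1 rat.

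Groups were taken from the sample labels. log2(TPM + 1) was fitted in limma 3.58.1 (R 4.3.3), with a variance trend and group means, over the 13105 genes that reached 1 TPM in 3 rats or more. The thresholds (adjusted p under 0.05, absolute log2 fold change of at least 0.5) are those of the study's methods. The fit was tested on simulated data. Single genes were compared by two-sided exact permutation, UVB labels within genotype for the averaged effect. Between 2 groups the p was 2 times the smaller tail. For the averaged effect it was the share of arrangements with an absolute difference at least as large, so these p-values follow different rules. Correlations over 17 rats used 100000 permutations within groups (scipy 1.17.1, numpy 2.4.6). Promoter windows came from RefSeq (GRCr8). The members and lists were chosen with earlier results of these data known. Named genes were all members, the clock pathway genes called in any comparison or chosen by role (Per1, Clock, Cry2, Nfil3, Bhlhe40, Bhlhe41), and the 5 genes nearest to Arntl and to Dbp. A further gene of the list is not reported here. Alternatives were other pseudocounts, filters, scalings, weights, composition covariates, thresholds, a replicate block and leaving out each rat.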

Additional observations from a re-analysis of the deposited data

Results flagged for a closer look

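Of 30 member and group combinations of 4 or 5 rats, 2 held a rat far from the others, and chance flags about 1 in 20. Ciart stood at 144.61 TPM in Control WT rat 1, where the other 3 rats of the group lay at 108.70 to 113.53 TPM, so the gap took up 0.865 of the group's range. Nr1d1 stood at 40.67 TPM in UVB P1.hMR rat 4, where the other 4 rats lay at 21.16 to 25.25 TPM, and the gap took up 0.790 of the range. That rat also had the lowest Arntl and the highest Dbp of its group.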

How the results depend on the processing

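The count of members called after UVB was 0 in WT rats with the hair keratin covariate and 1 in WT rats, 1 in P1.hMR rats and 1 in the averaged comparison when the fold threshold was raised to 1. With the hair keratin covariate the WT Npas2 difference was -0.66, against -0.64 in the main fit, and the share of all genes called is not given here. Leaving out each rat gave 2 to 3 members in WT rats, 4 to 4 in P1.hMR rats and 3 to 4 in the averaged comparison. The same runs called 927 to 1100, 1290 to 1457 and 1190 to 1288 of all genes. In the genotype comparisons and the interaction they gave 0 to 0 members. The correlation of Arntl and Dbp was -0.19 without centring and lay between -0.85 and -0.78 when each rat was left out. Counts over all genes ranged more: 690, 882 and 790 genes were called after UVB in WT, P1.hMR and averaged with a mean of at least 5 TPM, 2820, 5123 and 6192 with no fold threshold, and 219, 300 and 240 at the threshold of 1, and 0 to 5 genes were called between genotypes under UVB, except 51 without UVB WT rat 3. Without that rat 8 genes were called in the interaction, and without Control WT rat 4 there were 6 between genotypes without UVB and 1 in the interaction.

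Of the called member differences none changed sign. Uncalled differences near 0 changed sign in 19 instances. Under quantile normalization these were Ciart between genotypes without UVB (0.0051), under UVB (0.0097) and in the interaction (0.0046) and Tef in the interaction (0.016). Under median-of-ratios scaling they were Ciart under UVB (0.0049) and in the interaction (0.012) and Tef in the interaction (0.020). With sample weights they were Ciart without UVB (0.031) and, under UVB, Npas2 (-0.017) and Per2 (-0.040). With the muscle covariate they were Per2 after UVB in WT (-0.050) and Tef in the interaction (0.059). With the hair keratin covariate they were Tef after UVB in WT (0.12), in P1.hMR (0.042) and averaged (0.079), and Ciart in the interaction (0.014). With the replicate block they were Npas2 under UVB (-0.029) and, in the interaction, Ciart (0.011) and Tef (0.0047). The cause was not tested.

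The replicate block changed no member call. In 22 pairs of same-numbered rats the correlation of deviations ran from -0.19 to 0.24, with 4 pairs over 0.1. In pairs with different numbers it ran from -0.26 to 0.18. Whether replicate numbers pair the rats was not tested.

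Leaving out each rat turned the sign of further uncalled differences, with these lowest and highest values. After UVB in WT they were Per2 -0.16 to 0.29, Ciart -0.22 to 0.012 and Tef -0.18 to 0.039. After UVB in P1.hMR they were Arntl -0.11 to 0.0083 and Tef -0.16 to 0.028. Between genotypes without UVB they were Arntl -0.034 to 0.080, Ciart -0.053 to 0.086, Nr1d1 -0.024 to 0.24 and Nr1d2 -0.0026 to 0.12. Under UVB they were Npas2 -0.095 to 0.080, Per2 -0.086 to 0.10, Cry1 -0.068 to 0.21 and Ciart -0.10 to 0.12. In the interaction they were Per3 -0.16 to 0.027, Ciart -0.11 to 0.13 and Tef -0.11 to 0.11.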
